A study of Homo sapiens with 6 samples.

Results

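The 2-oxoacid dehydrogenase complexes are large mitochondrial assemblies that decarboxylate a 2-oxoacid and pass the remaining acyl group to coenzyme A. The 10 genes described here encode their subunits and were taken by gene symbol from a deposited table of 57819 genes. OGDH, OGDHL and DLST belong to the 2-oxoglutarate dehydrogenase complex (OGDHC). PDHA1, PDHB and DLAT belong to the pyruvate dehydrogenase complex (PDHC). BCKDHA, BCKDHB and DBT belong to the branched-chain 2-oxoacid dehydrogenase complex (BCKDHC). DLD serves all of them.

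Each complex works through the same 3 activities. A thiamine-dependent E1 enzyme decarboxylates the substrate, an E2 acyltransferase carries the product on a swinging lipoyl arm attached to a lysine, and the flavoprotein E3 reoxidizes that arm and makes NADH. PDHC feeds acetyl-CoA into the citric acid cycle, OGDHC is a step of the cycle itself, and BCKDHC commits the carbon of valine, leucine and isoleucine to breakdown.

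RNA was measured by sequencing of polyA RNA, as single 50 bp reads, in 6 libraries of IMR90 ER:Ras cells. IMR90 cells are fibroblasts of human lung. ER:Ras joins oncogenic Ras to part of the estrogen receptor, so that 4-hydroxytamoxifen (4OHT) turns it on. All 6 libraries came from cells given 200 nM 4OHT for 3 days, so none shows the cells before Ras activation. The 3 control libraries carried a scrambled siRNA (SCRAMBLE), and in the 3 knockdown libraries the siRNA was directed at sin-lncRNA, a long noncoding RNA. The labels do not say whether replicates were separate cultures, so p-values measure only the spread between these libraries, which may be technical.

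The targeted lncRNA fell from 4.17 ± 0.52 to 0.556 ± 0.076 RPM (reads scaled to library size; SD, n = 3 libraries per group), a log2 fold change of -2.86 (SE 0.18), and no tested gene had a lower one. Reads in genes numbered 30271192 to 50913672 in controls and 22117324 to 27882280 in knockdowns, so depth and group cannot be told apart. In every library 0 reads allows up to 3 reads, which is 0.0596 to 0.134 RPM, a limit that covers counting error only. Reads from the mitochondrial genome made up 4.21 to 4.66% of a control library and 4.60 to 5.09% of a knockdown library. All 10 fibroblast markers could be tested, with summed levels of 15667 to 16885 RPM in controls and 11355 to 11756 RPM in knockdowns. Of these, 5 rose and 5 fell at an adjusted p under 0.05 in limma, where 23.5% of all genes fell and 17.5% rose. COL1A1, the most abundant of the markers, stood at 6617 ± 460 RPM in controls and 3599 ± 223 RPM in knockdowns. Summed markers of other cell types were low in both groups. For 6 epithelial genes the sums were 4.196 to 6.67 RPM in controls and 2.02 to 2.74 RPM in knockdowns. KRT5 was at 0 in every library. KRT19 held most of the sum and fell from 4.92 ± 1.33 to 1.94 ± 0.30 RPM (-1.31, adjusted p 0.000336 in limma). For 4 endothelial genes the sums were 6.99 to 7.90 against 7.91 to 8.84 RPM. CDH5 was at 0 in every control, and TEK stood at 5.72 ± 0.57 and 5.96 ± 0.66 RPM. VWF rose from 1.76 ± 0.08 to 2.37 ± 0.21 RPM (0.42, adjusted p 0.0342). The sums of 6 leukocyte genes were 0.200 to 0.298 against 0.269 to 0.641 RPM. The part of other cell types in the results below was not tested.

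The E2 subunits are joined by their lipoyl site. The coding stretches around the lipoylated lysine are shown to let the genes be compared at the point of their shared chemistry. Capitals mark the lysine codon, each stretch is 45 coding bases from GENCODE 29 transcripts (GRCh38), and DLAT has 2 such sites.
DLST, lysine codon 110: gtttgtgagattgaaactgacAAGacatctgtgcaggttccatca
DLAT, lysine codon 132: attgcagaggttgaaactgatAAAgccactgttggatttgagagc
DLAT, lysine codon 259: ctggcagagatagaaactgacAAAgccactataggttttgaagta
DBT, lysine codon 105: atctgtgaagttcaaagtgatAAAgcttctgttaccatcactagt

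The DLST stretch spans exons 6 and 7 of 15 (chr14:74889929-74891076, plus strand). The DLAT stretches span exons 2 and 3 of 14 (chr11:112026291-112028550, plus strand) and exons 5 and 6 (chr11:112033497-112037283). The DBT stretch lies within exon 4 of 11 (chr1:100230830-100230874, minus strand). Of the 45 bases, 24 or 25 matched DLST in each of the other stretches, while the DLAT sites matched each other at 33. No 50-base word, the length of a read, was shared between the coding sequences of DLST, DLAT and DBT, so reads from their coding parts can be told apart.

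OGDH, the E1 subunit that decarboxylates 2-oxoglutarate, was the member that moved most. Its level was 115.9, 124.2 and 120.3 RPM in control replicates 1, 2 and 3 and 76.5, 75.0 and 78.7 RPM in knockdown replicates 1, 2 and 3. The lowest control stood far above the highest knockdown, and the libraries of a group differed little. OGDH fell from 120.1 ± 4.2 to 76.7 ± 1.8 RPM, which is 63.9% of control, a log2 fold change of -0.65 (SE 0.046, 95% interval -0.75 to -0.55, adjusted p 2.0e-06 in limma with Benjamini-Hochberg adjustment over all genes tested). Of the 19048 genes tested, 991 had a lower log2 fold change. In bulk RNA, less OGDH RNA per cell and fewer cells that express it cannot be told apart. With other scalings, tests and filters, and with each library left out in turn, the log2 fold change stayed between -0.67 and -0.62 and remained past the threshold.

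DLST, the succinyltransferase E2 core onto which OGDH is built, did not follow it. DLST stood at 121.3, 130.7 and 124.6 RPM in controls and at 122.4, 116.2 and 114.5 RPM in knockdowns. The groups overlapped, because knockdown replicate 1 lay above control replicate 1. The means were 125.5 ± 4.8 and 117.7 ± 4.2 RPM, and the log2 fold change was -0.09 (SE 0.047, interval -0.20 to 0.01, adjusted p 0.138 in limma). The interval excludes a change as large as that of OGDH.

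The unequal change was tested on the ratio itself. The log2 ratio of OGDH to DLST was -0.07, -0.07 and -0.05 in controls and -0.68, -0.63 and -0.54 in knockdowns. These ratios are of reads without regard to length and are read for their change alone. All knockdown ratios lay well below all control ratios. The log2 ratio fell by 0.55 (SE 0.052, interval -0.67 to -0.44, adjusted p 5.47e-05 in limma, where 34.6% of all genes changed relative to DLST). The exact two-sided permutation test gave 0.1, the smallest p that 3 libraries against 3 allow.

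A processed pseudogene, DLSTP1, bears on the DLST count. It lies on chromosome 1, far from DLST on chromosome 14, and shares 207 of the 4924 different 50-base words of the DLST transcripts, so reads from the genes can be split between them. The table lists it under the clone name RP4-682C21.2 with 28.1, 32.2 and 29.9 RPM in controls and 28.3, 28.9 and 27.4 RPM in knockdowns, and the groups overlap. That is 23.96% of the DLST reads in controls and 23.95% in knockdowns. Its log2 fold change was -0.09 (SE 0.063, adjusted p 0.272 in limma). With its reads added to those of DLST, the log2 fold change of DLST was -0.09 (adjusted p 0.136) and that of the ratio of OGDH to DLST was -0.55 (adjusted p 4.85e-05).

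OGDHL, the OGDH paralogue known mainly from brain, was nearly absent. It had 6, 3 and 2 reads in controls and 1, 0 and 1 reads in knockdowns, at or below 0.18 RPM, and it was too low to be tested. Its coding sequence is identical to that of OGDH at 74.1% of the positions of their alignment, gaps counted, and shares no 50-base word with it. OGDH was therefore the only E1 gene of the complex with an appreciable count in these cells.

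**Figure D1:**
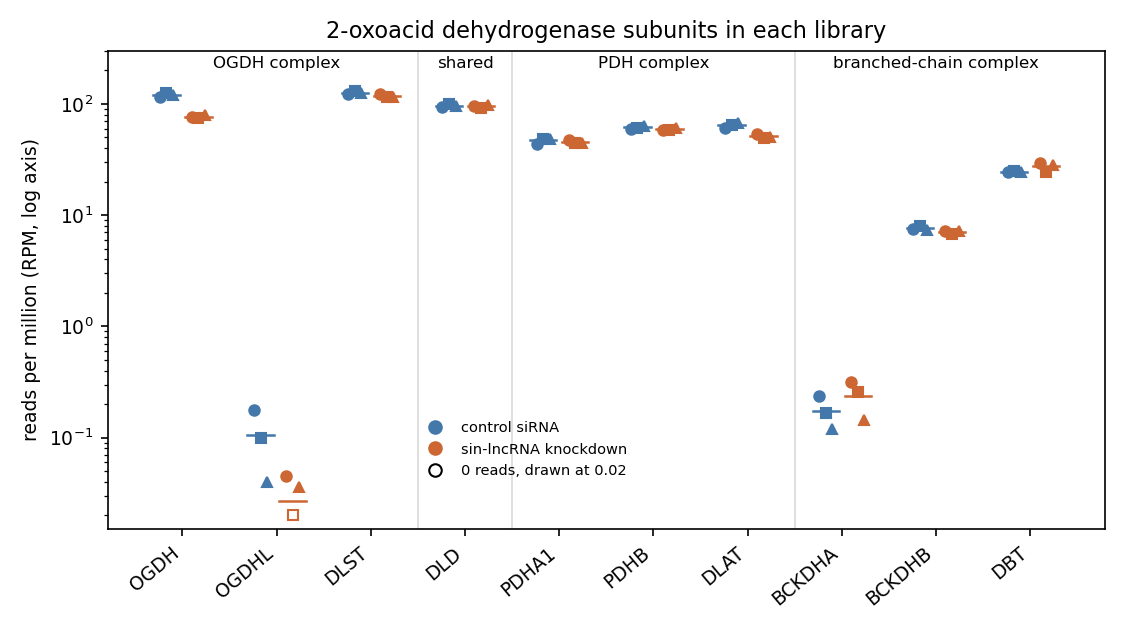
Level of each subunit gene in RPM (log axis) in the 3 control and 3 knockdown libraries; circles, squares and triangles are replicates 1, 2 and 3, and short lines are group means. OGDH (120.1 to 76.7 RPM) and DLAT (64.3 to 51.0 RPM) show knockdown libraries clearly below every control, and OGDHL and BCKDHA lie below 1 RPM.

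DLD, the E3 flavoprotein shared by the complexes, stood at 92.7, 99.9 and 96.3 RPM in controls and at 95.5, 91.6 and 98.2 RPM in knockdowns. The groups were interleaved. The log2 fold change was -0.02 (SE 0.048, interval -0.12 to 0.09, adjusted p 0.787 in limma), and its sign depended on the scaling. In the table's coordinates LAMB1, an abundant gene with 19723 to 35239 reads, lies on the opposite strand over 19.5% of the span of DLD, but only 70 of the 5299 exon bases of DLD (1.32%) are shared with it in GENCODE 29.

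Because DLD joins the complexes, it also served as a common reference. Relative to DLD, 2 of the 7 other tested members changed, where 35.7% of all genes did. The log2 ratio of OGDH to DLD was 0.32, 0.31 and 0.32 in controls and -0.32, -0.29 and -0.32 in knockdowns, and the groups lay far apart. The ratio fell by 0.63 (SE 0.048). The ratio of DLAT to DLD fell by 0.32 (SE 0.060, adjusted p 0.00245). For DLST the change was -0.07 (interval -0.19 to 0.04, adjusted p 0.307), with all knockdown ratios below all control ratios. The other changes relative to DLD were -0.03 for PDHA1, -0.04 for PDHB, -0.09 for BCKDHB and 0.18 for DBT (adjusted p 0.0757), and none of these passed. DBT passed relative to DLD, as a rise, after thinning all libraries to the smallest total and without knockdown replicate 2, which made 3 of 7.

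In PDHC the E2 core fell, and neither E1 subunit passed the test. DLAT, the acetyltransferase core, stood at 61.2, 64.7 and 67.1 RPM in controls and at 53.9, 48.9 and 50.3 RPM in knockdowns. Every knockdown library lay below every control. DLAT fell from 64.3 ± 3.0 to 51.0 ± 2.6 RPM, 79.3% of control, a log2 fold change of -0.33 (SE 0.056, interval -0.46 to -0.21, adjusted p 0.000762 in limma). It remained past the threshold in every other fit run, with values from -0.42 to -0.30.

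PDHA1, the X-linked alpha subunit of E1 that carries the regulatory phosphorylation sites, stood at 43.8, 48.3 and 48.5 RPM in controls and at 47.6, 44.1 and 44.6 RPM in knockdowns. Its log2 fold change was -0.04 (SE 0.059, interval -0.17 to 0.08, adjusted p 0.578). PDHB, the beta subunit of the same E1, stood at 59.8, 61.2 and 62.8 RPM in controls and at 58.0, 57.9 and 60.8 RPM in knockdowns, and its log2 fold change was -0.06 (SE 0.047, interval -0.16 to 0.05, adjusted p 0.372). With a trend in GC content and length removed, PDHB was called lower (-0.14, adjusted p 0.0272). The groups overlapped for both. PDHA1 shares 956 of its 4493 exon bases with MAP3K15 on the opposite strand, a gene with 0 to 8 reads here.

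The ratio of the E1 subunits to each other moved by 0.01 on the log2 scale (SE 0.062, interval -0.12 to 0.15, adjusted p 0.904; exact permutation p 0.9), and leaving out control replicate 1 or knockdown replicate 1 turned its sign. The log2 ratio of DLAT to PDHB was 0.03, 0.08 and 0.10 in controls and -0.11, -0.24 and -0.28 in knockdowns. All knockdown ratios lay below all control ratios, and the ratio fell by 0.28 (SE 0.060, interval -0.41 to -0.15, adjusted p 0.00292 in limma, where 38.6% of all genes changed relative to PDHB; exact permutation p 0.1). In OGDHC the gene that fell encodes E1, and in PDHC it encodes E2.

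**Figure D2:**
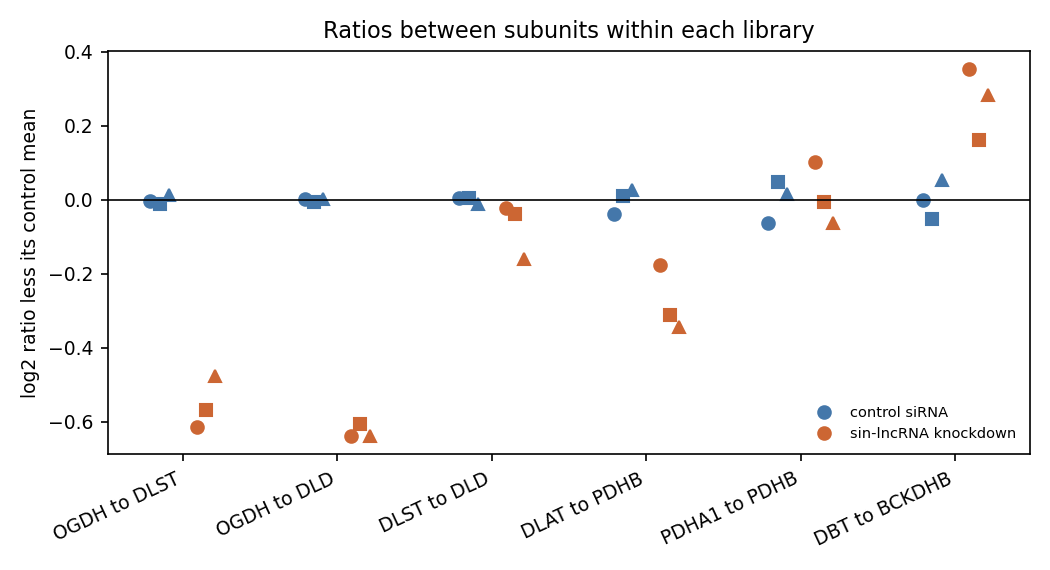
Log2 ratio between subunits within each library, less its mean over the 3 control libraries; circles, squares and triangles are replicates 1, 2 and 3. The OGDH ratios fell by 0.55 (to DLST) and 0.63 (to DLD), the DLAT to PDHB ratio fell by 0.28, and the PDHA1 to PDHB ratio overlapped between groups.

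BCKDHC was expressed at a lower level. BCKDHB, the beta subunit of its E1, stood at 7.55, 8.02 and 7.33 RPM in controls and at 7.22, 6.83 and 7.20 RPM in knockdowns. All knockdown libraries lay below all controls by a narrow margin, and the log2 fold change of -0.11 (SE 0.085, interval -0.29 to 0.08, adjusted p 0.345) did not pass. DBT, the acyltransferase E2 core, stood at 24.3, 24.9 and 24.4 RPM in controls and at 29.7, 24.6 and 28.2 RPM in knockdowns. Knockdown replicate 2 lay among the controls, and the other two lay above them. The log2 fold change of DBT was 0.16 (SE 0.072, adjusted p 0.102); without knockdown replicate 2 it was 0.24 (adjusted p 0.0164).

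The log2 ratio of DBT to BCKDHB was 1.68, 1.63 and 1.74 in controls and 2.04, 1.84 and 1.97 in knockdowns. All knockdown ratios lay above all control ratios, and the ratio rose by 0.27 (SE 0.078, interval 0.10 to 0.43, adjusted p 0.0183 in limma, where 34.1% of all genes changed relative to BCKDHB; exact permutation p 0.1). This call was not firm. It was lost without knockdown replicate 1 (0.22, adjusted p 0.0853), without knockdown replicate 3 (0.26, adjusted p 0.0705) and with a trend in GC content and length removed (0.18, adjusted p 0.059).

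BCKDHA, the alpha subunit of that E1, had 8, 5 and 6 reads in controls and 7, 6 and 4 in knockdowns, at most 0.31 RPM, and it was not tested. These counts cannot be read as its expression. The table also lists a read-through gene, CTC-435M10.3, which runs over 99.99% of the span of BCKDHA on the same strand and has 0 reads in all 6 libraries. In GENCODE 29 its exons hold 1660 of the 2602 exon bases of BCKDHA (63.8%). How reads in shared exons were assigned is not given in the sources used here, and its part in the count was not tested. The E1 of BCKDHC is therefore described by BCKDHB alone.

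Over the whole set, 8 of the 10 genes could be tested, 2 fell (OGDH and DLAT), none rose and 6 did not pass. Among all 19048 genes tested 41% passed, 23.5% downward and 17.5% upward, a larger share than that of the members. The median log2 fold change was -0.07 over the 8 tested members and -0.04 over all genes tested. The knockdown libraries lay wholly below the controls for 3 of the 8 (OGDH, DLAT and BCKDHB) and wholly above for none, against 28.3% below, 22.8% above and 51.1% in either direction among all genes. At an unadjusted p under 0.05 in limma, 1 member (DBT) would be called higher, and with voom weights none was called higher after adjustment. With the trend in GC content and length removed, 4 members fell, adding DLD (-0.11, adjusted p 0.0464) and PDHB (-0.14, adjusted p 0.0272), and DBT stood at -0.0083.

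**Figure D3:**
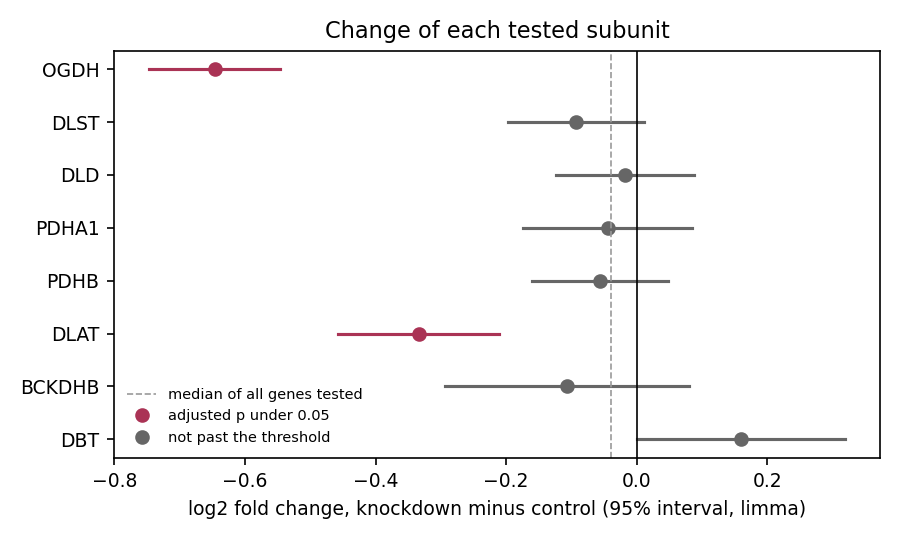
Log2 fold change, knockdown minus control, of the 8 tested subunit genes with 95% intervals from limma; red marks an adjusted p under 0.05 and the dashed line is the median of all genes tested (-0.04). Only the intervals of OGDH (-0.75 to -0.55) and DLAT (-0.46 to -0.21) lie wholly below that line.

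Levels were set against each other on the RPKM scale, which is RPM divided by exon length in kilobases. In controls DLST led with 27.6 ± 1.0 RPKM, followed by OGDH with 23.1 ± 0.8, DLD with 18.2 ± 0.7, DLAT with 13.3 ± 0.6, PDHB with 13.0 ± 0.3, PDHA1 with 10.4 ± 0.6, DBT with 2.17 ± 0.03 and BCKDHB with 1.88 ± 0.09. DLAT and PDHB overlapped in this order, and the other neighbours did not. In knockdowns OGDH, at 14.7 ± 0.4 RPKM, came after DLST (25.9 ± 0.9) and DLD (17.9 ± 0.6). DLAT, at 10.6 ± 0.5 RPKM, came below PDHB (12.5 ± 0.4) and overlapped PDHA1 (10.1 ± 0.4). DBT (2.43 ± 0.23) and BCKDHB (1.74 ± 0.05) stayed lowest. DLST, OGDH and DLD therefore had higher RPKM than the PDHC subunits, and these higher RPKM than DBT and BCKDHB, in both groups. Lengths are unions of all annotated exons, so a gene with a long exon that is little used reads low.

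Other components of these complexes were described from a list of 4 genes. DHTKD1, the E1 enzyme for 2-oxoadipate in lysine breakdown and a relative of OGDH that works with DLST and DLD, fell from 29.9 ± 1.3 to 19.3 ± 2.5 RPM (log2 fold change -0.63, SE 0.086, adjusted p 0.000202). OGDH, by comparison, had a log2 fold change of -0.65. PDHX, the E3-binding protein of PDHC, rose from 44.8 ± 3.0 to 50.6 ± 0.6 RPM (0.18, SE 0.057, adjusted p 0.0292). That call was lost without control replicate 1 or 3 or any of the 3 knockdown libraries, with adjusted p between 0.0506 and 0.0933. MRPS36, an adaptor that ties DLD to OGDHC, stood at 14.9 ± 0.9 and 13.2 ± 0.2 RPM (-0.17, adjusted p 0.0758), and PDHA2, the testis form of PDHA1, at 1.18 ± 0.24 and 1.195 ± 0.263 RPM.

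The kinases and phosphatases that switch E1 off and on were mixed. Of 9 genes 8 were tested, 3 fell, 2 rose, and the median log2 fold change was -0.02, where 23.5% of all genes fell and 17.5% rose. The falls were in kinases, which inactivate E1 by phosphorylation: PDK2 from 12.6 ± 1.0 to 8.06 ± 0.57 RPM (-0.64, adjusted p 0.000222), BCKDK from 69.1 ± 5.7 to 50.5 ± 1.8 RPM (-0.45), and PDK1 from 36.1 ± 2.4 to 29.5 ± 2.2 RPM (-0.29). The rises were in phosphatases, which reactivate it. PDP1, which acts on PDHC, rose from 36.4 ± 1.4 to 48.2 ± 2.4 RPM (0.41), and PPM1K, which acts on BCKDHC, from 8.48 ± 0.42 to 11.02 ± 0.62 RPM (0.38). All 5 had fully separated groups and kept their calls in every other fit run at the same threshold. PDK3, also a kinase, had a log2 fold change of 0.31 (adjusted p 0.239) and did not pass. Neither did PDP2 (0.04) or PDPR (-0.09). PDK4, a kinase too low to be tested, had 0, 0 and 1 reads in controls and 2, 2 and 2 in knockdowns.

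Lipoate is made in mitochondria from a fatty acid precursor and needs iron-sulfur clusters. Of the 18 genes for its synthesis and attachment, 17 were tested, 8 fell and 2 rose, against 23.5% and 17.5% of all genes, and the median log2 fold change was -0.17. ISCA1, a cluster assembly factor, fell from 19.1 ± 1.1 to 11.7 ± 0.6 RPM (-0.70, SE 0.074, adjusted p 3.47e-05). HSD17B8, a subunit of a ketoacyl reductase of mitochondrial fatty acid synthesis, had only 5 to 25 reads per library and a log2 fold change of -1.04 (adjusted p 0.0175). Its call was lost without control replicate 1 (0.070) or 3 (0.062) and without a filter on low counts (0.0699). With an offset of 5 reads its log2 fold change was -0.56 (adjusted p 0.065). LIAS, the lipoyl synthase itself, fell from 4.14 ± 0.46 to 3.15 ± 0.05 RPM (-0.39, adjusted p 0.024), a call lost without control replicate 2 (0.102) or knockdown replicate 1 (0.0504) or 3 (0.0628).

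The rises in that list were in CBR4, the partner of HSD17B8, from 14.8 ± 0.5 to 20.7 ± 1.3 RPM (0.49, adjusted p 0.000236), and in FDXR, ferredoxin reductase, from 22.5 ± 4.7 to 32.3 ± 4.3 RPM (0.54, adjusted p 0.00954). The call of FDXR was lost in fits without an intensity trend (adjusted p 0.066) or with a robust spread (0.063). LIPT1, which attaches lipoate to E2, stood at 2.33 ± 0.38 and 2.68 ± 0.21 RPM and did not pass. GCSH, the lipoylated protein of the glycine cleavage system, which lies on the route by which lipoate reaches E2, fell from 10.1 ± 0.3 to 7.96 ± 0.67 RPM (-0.35, adjusted p 0.00822). Its partner GLDC, the decarboxylase, rose from 2.29 ± 0.17 to 3.15 ± 0.45 RPM (0.45, adjusted p 0.028), a call lost without control replicate 1 or 3 or knockdown replicate 2 or 3 (adjusted p 0.0563 to 0.111). AMT, the aminomethyltransferase, stood at 1.89 ± 0.07 and 1.90 ± 0.50 RPM.

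Of 8 genes that supply the thiamine and flavin cofactors of E1 and E3, 7 were tested, 2 fell and 1 rose, where 41% of all genes changed in either direction, and the median log2 fold change was -0.27. FLAD1, FAD synthase, fell from 42.4 ± 0.9 to 32.2 ± 1.4 RPM (-0.40, SE 0.054, adjusted p 0.000211). The riboflavin carrier SLC52A2 fell from 74.6 ± 8.0 to 62.0 ± 7.9 RPM with overlapping groups (-0.27, adjusted p 0.0445), and the thiamine carrier SLC19A2 rose from 10.5 ± 0.8 to 12.5 ± 0.8 RPM (0.26, adjusted p 0.0319). Neither call was firm. Without control replicate 1 the adjusted p was 0.128 for SLC52A2 and 0.0969 for SLC19A2, without control replicate 3 it was 0.156 and 0.0869, and without knockdown replicate 3 it was 0.0954 and 0.110. The call of SLC52A2, lost in 11 of 20 other fits, was also lost without knockdown replicate 1 (0.161), and that of SLC19A2 without knockdown replicate 2 (0.0859). Without control replicate 1 or 3, FLAD1 was the sole gene of the list that passed.

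Genes that supply the substrates and genes of the steps that follow fell more often than they rose. Of 20 supply genes 13 fell and 2 rose (median -0.19), and of 27 genes of later steps 16 fell and 1 rose (median -0.17), where 23.5% and 17.5% of all genes did. SLC25A22, a mitochondrial glutamate carrier, fell from 41.3 ± 5.6 to 19.5 ± 1.6 RPM (-1.07, SE 0.097, adjusted p 1.11e-05). GLUD1, which turns glutamate into 2-oxoglutarate, fell from 128.8 ± 3.5 to 89.1 ± 3.7 RPM (-0.53). BCAT2, the mitochondrial aminotransferase that makes the substrates of BCKDHC, fell from 20.2 ± 2.0 to 10.4 ± 1.1 RPM (-0.96, SE 0.097). Its cytosolic counterpart BCAT1 rose from 238.4 ± 6.9 to 273.5 ± 9.3 RPM (0.20, adjusted p 0.00371), and this fell to 0.03 (adjusted p 0.523) with the GC content and length trend removed. PSAT1, a serine synthesis enzyme that yields 2-oxoglutarate, rose from 58.6 ± 3.2 to 77.0 ± 4.3 RPM (0.39).

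Among the later steps, enzymes of branched-chain breakdown held the largest falls. ALDH6A1, of the valine branch, fell from 7.92 ± 0.41 to 4.03 ± 0.49 RPM (-0.98, SE 0.112). MCCC2 and MCCC1, the subunits of methylcrotonyl-CoA carboxylase in the leucine branch, fell from 27.6 ± 2.1 to 17.7 ± 2.3 RPM (-0.65) and from 18.0 ± 0.3 to 13.5 ± 0.7 RPM (-0.42). PCCA, the alpha subunit of propionyl-CoA carboxylase, rose from 13.4 ± 0.5 to 16.8 ± 0.9 RPM (0.33, adjusted p 0.00312). Of 5 genes tied to the stability of OGDHC, 3 fell and none rose (median -0.30), against 23.5% and 17.5% of all genes. ABHD11, which protects the lipoylated complex, fell from 9.56 ± 0.59 to 6.85 ± 0.23 RPM (-0.48), CLPP, a mitochondrial protease, from 45.8 ± 5.5 to 34.0 ± 3.7 RPM (-0.43), and SIAH2, a ubiquitin ligase, from 19.9 ± 0.4 to 16.2 ± 0.7 RPM (-0.30).

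**Figure D4:**
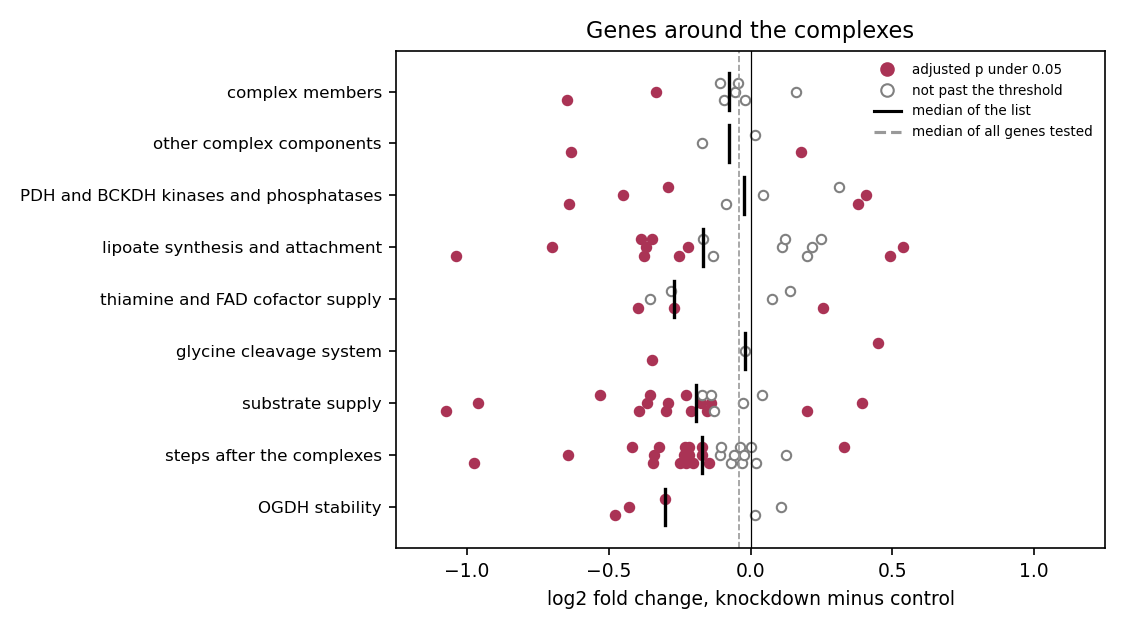
Log2 fold change, knockdown minus control, of each tested gene in the subunit set and in 8 lists of related genes; filled points passed an adjusted p of 0.05, black bars are list medians and the dashed line is the median of all genes tested (-0.04). Falls outnumber rises in the substrate supply list (13 against 2 of 20) and in the steps after the complexes (16 against 1 of 27).

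The genes most like OGDH across the 6 libraries were sought among 15114 others with enough reads, by the Euclidean distance of log2 values less their control mean. Among the nearest were VAT1 (distance 0.058), PREX1 (0.069), PRSS3 (0.071) and PPP1R7 (0.082), with log2 fold changes of -0.65, -0.64, -0.62 and -0.63. VAT1 stood at 495.7 ± 6.3 RPM in controls and 315.4 ± 3.7 RPM in knockdowns. None of the other tested subunit genes was among the 5 nearest. This follows from their smaller log2 fold changes, the next largest fall being that of DLAT at -0.33.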

How the data were processed

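The deposited table holds log2 CPM made by the authors. The submitters' processing notes name Bowtie2, featureCounts and hg19, with no version or role, and the strand setting is not given in the sources used here. In every library undoing an offset of 0.5 reads and an effective library size gave whole reads for 100% of values (tolerance 0.001), and RPM and RPKM were computed from those reads, with exon lengths from GENCODE 29. Coordinates beside sequences are GRCh38. Genes with a mean of at least 10 normalized reads (19048) were tested with limma 3.58.1 in R 4.3.3 (lmFit, eBayes with an intensity trend, two-sided) on the deposited log2 values, with Benjamini-Hochberg adjustment and a threshold of 0.05. Subunit ratios were tested by the same fit on log2 ratios of all genes to a reference subunit, beside exact permutation tests. On simulated counts for 19048 genes, the fit recovered, in the right direction, 76.4% of 110 genes changed by 0.5 (log2) and 91.1% of 90 changed by 1. Genes left unchanged made up 5.14% of its calls. The simulation gave every gene the same spread beyond counting error (dispersion 0.00143). It also changed far fewer genes than the 41% called in the data, so these shares need not hold for the data. Chi-square values between replicates were 2.69 to 10.1 per degree of freedom, so each library counted once. Outside the members, the genes named are the 3 largest rises and 3 largest falls past the threshold in each list (every gene of a list of at most 4), the 5 most like OGDH, of which 1 is not reported here, and the target; LIPT1, PDK3, PDP2, PDPR, PDK4, DLSTP1 and overlapping genes were named after their values were seen. Members and lists were chosen with earlier results of these data known. Tested alternatives covered scaling, test, offset, filter, depth, GC content and length, block, threshold and each library left out.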

Additional observations from a re-analysis of the deposited data

How the results depend on the processing

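The results were recomputed under up to 22 alternatives, 20 for most fold changes. The falls of OGDH and DLAT, of OGDH relative to DLST (-0.59 to -0.52) and of DLAT relative to PDHB (-0.33 to -0.24) passed in all of them, the stricter adjusted p of 0.01 included. The number of genes changed was 5195 at an adjusted p under 0.01, and 5803 to 7330 with a library left out. The number of members changed was 4 with the GC content and length trend removed, and 2 to 3 with a library left out. DBT relative to BCKDHB lost its call with that trend removed (0.18, adjusted p 0.059), at an adjusted p of 0.01 (0.27) and with some libraries left out (0.22 to 0.32 over all). With a library left out, PDHA1 relative to PDHB lay between -0.034 and 0.048. In each case the cause was not tested. Other values changed sign, with no call where the sign was turned. DLD was 0.000751 with library totals, 0.0089 with median-of-ratios factors and 0.016 with quantile normalization, and -0.045 to 0.0083 with a library left out, and it was called lower (-0.11, adjusted p 0.0464) with the GC content and length trend removed. DBT was -0.0083 with that trend removed, and it was called higher with quantile normalization (0.21, adjusted p 0.0459) and without knockdown replicate 2 (0.24, adjusted p 0.0164). PDHA2 was -0.013 with voom and -0.10 to 0.21 with a library left out. AMT was 0.000275 with library totals, 0.0084 with median-of-ratios factors, 0.018 with quantile normalization, 0.026 with an offset of 5 reads and 0.098 after thinning to the smallest total, and -0.22 to 0.10 with a library left out. Control and knockdown libraries of the same replicate number had deviations correlated at -0.15, -0.18 and 0.07. The deviations are taken from means of 3 libraries, so these values cannot settle whether the numbers pair the libraries. With the replicate number as a block, DBT relative to BCKDHB was 0.27 (adjusted p 0.0572), and the members changed were again OGDH and DLAT. Low counts left OGDHL and BCKDHA untested.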
